A study of Homo sapiens with 4 samples.

Results

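The genes described here are ATF4, its relative ATF5, 21 genes that are known targets or partners of ATF4 and the 20 genes of the cytosolic aminoacyl-tRNA synthetases. They were chosen by symbol from a written list, and all 43 were found among the 19974 rows of each deposited table. The RNA came from HCT116 cells, an established human colorectal carcinoma line. For 36 h they carried either a control siRNA of scrambled sequence (si-NC) or one against LINC00152 (si-152), each at 100 nM, and there were 2 libraries per siRNA, numbered 1 and 2. LINC00152 is a long noncoding RNA, and the comparison asks which transcripts differ once it is targeted. Its own level was not analysed here, so these values do not show how far it was reduced. The values were taken to be FPKM, which is read coverage per kilobase of transcript and per sequencing depth. That unit was inferred, as described below. The epithelial genes EPCAM, CDH1, KRT8, KRT18 and KRT19 were measured between 20.7 and 1378 FPKM in the 4 libraries, and VIL1, a marker of the intestinal brush border, was at or near 0. Among markers of other cell types, PTPRC, COL1A2 and DCN were listed at 0 in every library and COL1A1 lay between 7.02 and 7.98 FPKM. The sums of all values were between 424754 and 534311 FPKM per library, and the number of reads behind them is unknown.

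ATF4 is the transcription factor of the integrated stress response. When kinases that sense missing amino acids, misfolded protein, haem loss or viral RNA phosphorylate eIF2, general translation slows while ATF4 protein is made in larger amounts from its existing mRNA. ATF4 then switches on genes that make, import and recycle amino acids, and also many of the enzymes that load amino acids onto their tRNAs. A cell can therefore change ATF4 activity with little change in ATF4 mRNA, and only mRNA was measured here.

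ATF4 binds with C/EBP partners to a composite element whose core reads TGATGNAA. The core was searched on both strands in RefSeq promoter windows of 300 bases, with 250 bases before and 50 bases from each annotated start on, and matches on the other strand read TTNCATCA. Windows were matched for 35 members, and 10 of these held the core. They were 7 of the 16 matched synthetase genes and 3 of the 19 other matched members. Among all RefSeq windows of this length 3.62% held the core, and among the 9178 matched genes that were tested 2.59% of genes did. The stretches around the 10 matches are shown because their letters match the core of the element to which ATF4 is known to bind, and whether ATF4 binds any of them was not measured. They are given in the sense of each gene, with the core in capitals and up to 10 bases on each side (fewer in SLC3A2, where the window ends), on build GRCh38.p14.
ASNS, chr7:97872459-97872486, minus strand: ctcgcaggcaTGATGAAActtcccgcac
CHAC1, chr15:40953252-40953279, plus strand: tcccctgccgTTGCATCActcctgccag
SLC3A2, chr11:62881726-62881748, plus strand: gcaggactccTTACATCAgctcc
AARS, chr16:70289676-70289703, minus strand: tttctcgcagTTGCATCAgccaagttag
CARS, chr11:3057408-3057435, minus strand: ggggcggcggTTGCATCAgattctagga
GARS, chr7:30594835-30594862, plus strand: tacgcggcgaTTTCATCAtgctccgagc
IARS, chr9:92293693-92293720, minus strand: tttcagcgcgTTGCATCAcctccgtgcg
MARS, chr12:57488054-57488081, plus strand: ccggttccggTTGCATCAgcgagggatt
NARS, chr18:57621805-57621832, minus strand: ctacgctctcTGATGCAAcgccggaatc
TARS, chr5:33440957-33440984, plus strand: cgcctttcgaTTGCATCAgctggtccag
In 7 of the 10 sites the core was TGATGCAA or its reverse complement, and ASNS, SLC3A2 and GARS had another letter at the open position. The core began 68 bases before the start in ASNS, 209 in CHAC1, 187 in AARS and 33 in GARS. In the other 6 it lay close to the start, between 13 bases before it in IARS and 37 bases after it in SLC3A2. PSPH, SHMT2, PYCR1, SLC7A11, DARS, LARS, VARS and YARS had no window in the table.

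All members but VLDLR and VARS were well measured. A total of 41 reached 1 FPKM in 2 or more libraries and were tested, and the plot of FPKM per library shows them from the level of CTH, the cystathionine gamma-lyase of cysteine synthesis, at 6.93 to 9.48 FPKM, up to that of ATF4, at 437 to 711 FPKM. VLDLR, a lipoprotein receptor, was listed at 0 in 3 libraries and at 0.015 FPKM with si-152 replicate 1. VARS, the valyl-tRNA synthetase, was listed between 0 and 0.054 FPKM, whereas the other 19 synthetase genes lay between 13.8 and 217 FPKM. Valine cannot be used in cytosolic translation without this enzyme. VARS lies in the class III part of the major histocompatibility complex on chromosome 6, and the neighbouring genes were low in the same files. Of 28 protein-coding genes within 150000 bases on either side, 27 were in the tables, 24 were under 1 FPKM in every library and 8 were listed at 0 throughout. Their highest value was 3.74 FPKM, for the heat shock gene HSPA1B. The share with a mean under 1 FPKM was 96.3% there and 41.9% over the 17913 protein-coding genes of the tables. The low genes included LSM2, a subunit of RNA-processing complexes, at 0 in all 4 libraries, and CSNK2B, the regulatory subunit of casein kinase 2, between 0 and 0.196 FPKM. The value of VARS is therefore given only as it is listed, and no statement on its expression is made from it. Why the whole neighbourhood is low was not tested.

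**Figure D1:**
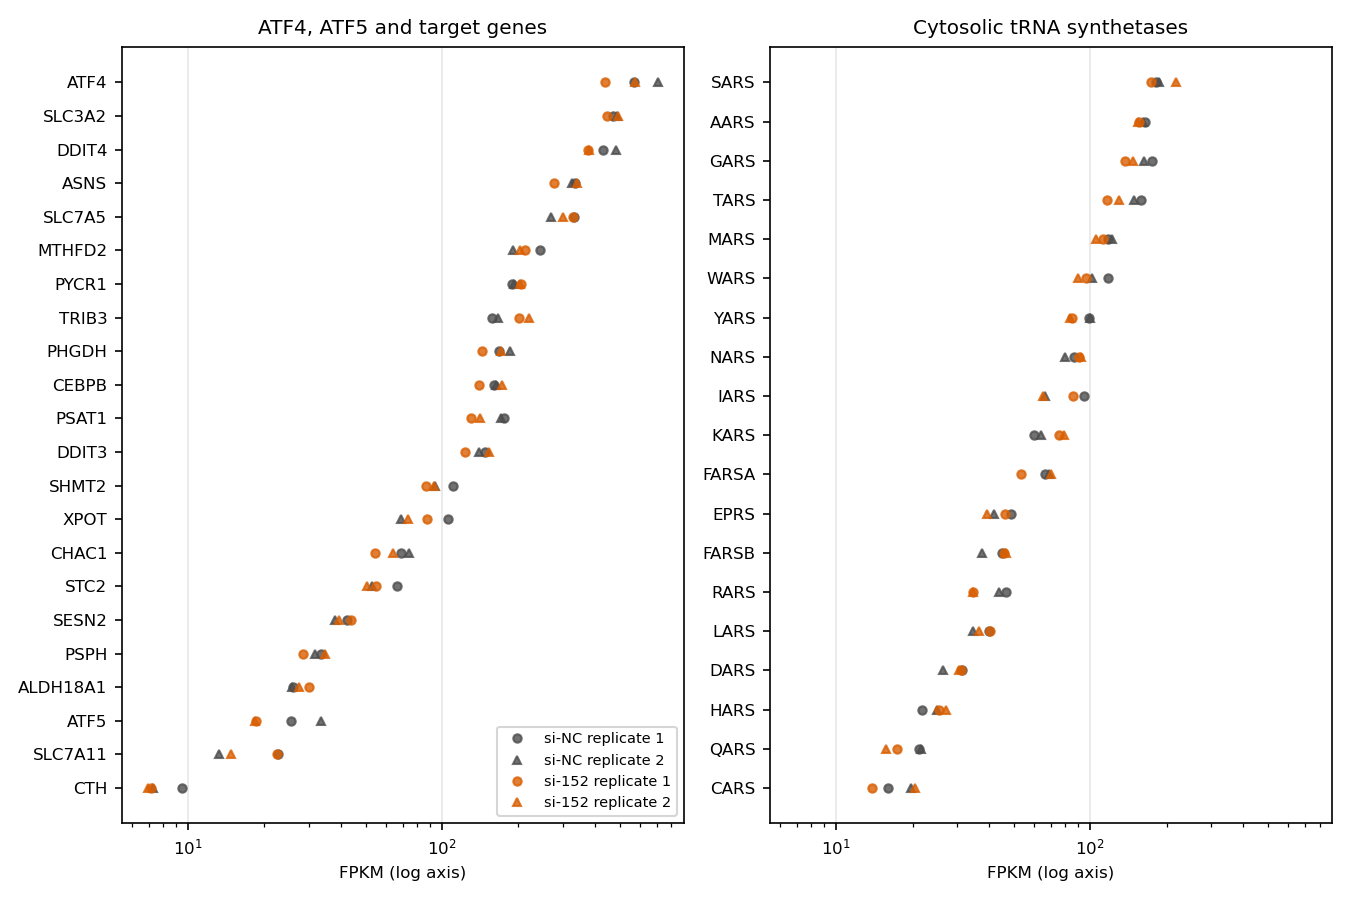
FPKM of the 41 tested members in each library on a log axis, with si-NC in grey, si-152 in orange, circles for replicate 1 and triangles for replicate 2; every point is 1 library. ATF4 is the highest member, at 437 to 711 FPKM, and the grey and orange points of most genes lie close together. Both orange points lie left of both grey ones in 14 members, ATF5 and RARS among them, and right of both in 7. Of all tested genes 13.9% lie below and 16.5% above in this way.

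ATF5 was the member with the clearest difference and was lower in si-152. ATF5 is a bZIP factor like ATF4, is translated from a similarly arranged mRNA and is itself a target of the stress response. It lies at chr19:49928702-49933935 on the plus strand of GRCh38. It measured 25.5 and 33.5 FPKM with si-NC replicates 1 and 2, against 18.5 and 18.4 FPKM with si-152. The si-NC libraries lay apart from each other while those of si-152 were nearly equal, and the groups did not overlap. The difference was -0.63 on the log2(FPKM + 1) scale (SE 0.18, 95% interval -1.04 to -0.22), with -0.44 between the libraries numbered 1 and -0.83 between those numbered 2. In the limma moderated test its unadjusted p was 0.0066, the rank 92 of 11222 genes, and its adjusted p was 0.76. Without si-NC replicate 2 the difference was -0.44 with an unadjusted p of 0.081.

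ATF4 itself overlapped between the groups. It measured 571 and 711 FPKM with si-NC and 437 and 575 FPKM with si-152. The difference was -0.35 (95% interval -0.93 to 0.24, unadjusted p = 0.22 in limma), and it was -0.39 and -0.30 in the pairs of equal number. In both groups the library numbered 2 was higher than that numbered 1, by 0.32 in si-NC and 0.40 in si-152, about as much as the groups differed. Leaving out 1 library moved the difference, to -0.50 and -0.19 without si-NC replicates 1 and 2 and to -0.15 and -0.54 without si-152 replicates 1 and 2, and it was -0.22 with quantile normalization. GENCODE v29 lists 4 pseudogenes named after ATF4, and how reads shared with such copies were counted is not given in the sources used here.

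DDIT3 and CEBPB, the other bZIP regulators, did not pass the test. DDIT3 encodes CHOP, which drives the late and pro-apoptotic arm of the response, and measured 148 and 139 FPKM with si-NC and 123 and 153 FPKM with si-152, a difference of -0.07 (95% interval -0.49 to 0.36). CEBPB, a partner that shares the element with ATF4, measured 160 and 163 FPKM with si-NC and 140 and 172 FPKM with si-152, a difference of -0.05 (95% interval -0.48 to 0.38). For both, the difference was below 0 in pair 1 and above 0 in pair 2. Under quantile normalization both differences took the other sign, at 0.02 and 0.03.

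Of the 9 enzymes of amino acid and one-carbon synthesis, none passed the test at an unadjusted p under 0.05 in limma. Of all tested genes 2.5% were lower and 1.89% higher by that rule. Both si-152 libraries lay below both si-NC libraries for PSAT1, SHMT2 and CTH and above them for ALDH18A1 and PYCR1. The groups overlapped for ASNS, PHGDH, PSPH and MTHFD2. These 3 below and 2 above stand beside 13.9% and 16.5% of all tested genes. With size factors they were 3 and 1, beside 1737 and 1812 of the 11222 tested genes. Quantile normalization also gave 3 and 1, beside 1864 and 1946. The lowest of the 9 was PSAT1, the aminotransferase of serine synthesis, at 175 and 170 FPKM with si-NC and 130 and 142 FPKM with si-152. Its difference was -0.35 (95% interval -0.75 to 0.06, unadjusted p = 0.087 in limma), and 4 pseudogenes carry its name. PHGDH, the first enzyme of the same pathway, measured 168 and 186 FPKM with si-NC and 143 and 171 FPKM with si-152, a difference of -0.18 with overlapping groups. The third enzyme, PSPH, differed by -0.05. ASNS, the asparagine synthetase and the classical target of this response, measured 335 and 325 FPKM with si-NC and 277 and 340 FPKM with si-152. Its difference was -0.11 (95% interval -0.59 to 0.38), below 0 in pair 1 and above 0 in pair 2. The si-152 libraries therefore lay on both sides of the si-NC libraries for ASNS. In the mitochondrial folate steps, SHMT2 differed by -0.18 and MTHFD2 by -0.06. The highest difference among the enzymes was that of ALDH18A1, which starts proline synthesis from glutamate, at 25.9 and 25.8 FPKM with si-NC and 30.0 and 27.4 FPKM with si-152, a difference of 0.14 (95% interval -0.22 to 0.51). PYCR1, which ends the same route, differed by 0.10, and CTH by -0.22.

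The 3 amino acid transporter genes overlapped between the groups. As deposited, all 3 had opposite signs in the pairs, and with size factors or quantile normalization 0 of 3 did. Among all 11222 tested genes 4155 did as deposited, 3796 with size factors and 3967 with quantile normalization. SLC7A11, the cystine carrier, measured 22.6 and 13.2 FPKM with si-NC and 22.3 and 14.8 FPKM with si-152. It differed by the number of the library and hardly by the siRNA, with a difference of 0.07 between the groups (95% interval -0.53 to 0.67) and of -0.73 and -0.56 between replicates 2 and 1 within si-NC and si-152. SLC7A5, the carrier of large neutral amino acids, differed by 0.07, and SLC3A2, the heavy chain with which both carriers pair, by -0.02.

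The stress effectors lay on both sides of 0, with TRIB3 the highest of all members. TRIB3, a pseudokinase induced by ATF4 and CHOP that restrains ATF4 activity, measured 158 and 167 FPKM with si-NC and 201 and 219 FPKM with si-152. Both si-152 libraries were above both si-NC libraries, the pairs differed by 0.35 and 0.39, and the overall difference of 0.37 did not pass the test (95% interval -0.05 to 0.79, unadjusted p = 0.077 in limma). CHAC1, which degrades glutathione and is an early ATF4 target, measured 68.8 and 74.3 FPKM with si-NC and 54.7 and 64.0 FPKM with si-152, a difference of -0.27 (95% interval -0.65 to 0.12). DDIT4, an inhibitor of mTORC1, differed by -0.27 and also did not overlap, and SESN2, another inhibitor of mTORC1, differed by 0.05. STC2, a secreted glycoprotein, differed by -0.17 and XPOT, the exporter of tRNA from the nucleus, by -0.09, with overlapping groups for both.

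Aminoacyl-tRNA synthetases attach each amino acid to its tRNA, and 8 of the genes below encode enzymes that sit together in the multi-synthetase complex of the cytosol. Within that complex RARS, QARS and MARS had both si-152 libraries below both si-NC libraries, KARS had both above, and DARS, EPRS, IARS and LARS overlapped. These 3 below and 1 above of 8 stand beside 13.9% and 16.5% of all tested genes. With size factors they were 3 and 2, beside 1737 and 1812 of the 11222 tested genes. Quantile normalization gave 2 and 1, beside 1864 and 1946. RARS, the arginyl-tRNA synthetase at chr5:168486445-168519299 on the plus strand, was lower in si-152. It measured 46.5 and 43.7 FPKM with si-NC and 34.5 and 34.7 FPKM with si-152, so that each group was tight and the groups stood apart. The difference was -0.37 (SE 0.16, 95% interval -0.73 to -0.013), with an unadjusted p of 0.044 in limma and an adjusted p of 1.00. Leaving out any 1 of the 4 libraries kept the difference between -0.42 and -0.33 but took the p above 0.05, up to 0.21.

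KARS, the lysyl-tRNA synthetase, held the other end of the complex. It measured 59.9 and 63.9 FPKM with si-NC and 75.6 and 78.8 FPKM with si-152, a difference of 0.31 (95% interval -0.06 to 0.68, unadjusted p = 0.088 in limma), with 0.33 and 0.30 in the pairs. QARS, the glutaminyl-tRNA synthetase, measured 21.2 and 21.6 FPKM with si-NC and 17.4 and 15.7 FPKM with si-152, a difference of -0.35 (95% interval -0.73 to 0.02, unadjusted p = 0.060 in limma). Both genes had groups that did not overlap and neither passed the test, although QARS had an unadjusted p of 0.047 with size factors and 0.038 with no filter, and KARS 0.047 with quantile normalization and 0.042 with no filter. The remaining members of the complex lay between -0.14 for MARS and 0.10 for DARS. Its non-enzymatic scaffold genes AIMP1, AIMP2 and EEF1E1 differed by 0.12, 0.03 and -0.14. Of these 3, 0 had an unadjusted p under 0.05 in limma, beside 2.5% lower and 1.89% higher among all tested genes.

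Of the 11 tested synthetase genes outside the complex, none passed the test at an unadjusted p under 0.05 in limma. By that rule 2.5% of all tested genes were lower and 1.89% higher. AARS, GARS, TARS, WARS and YARS had both si-152 libraries below both si-NC libraries, FARSB, HARS and NARS had both above, and CARS, FARSA and SARS overlapped. Among all tested genes 13.9% lay below and 16.5% above without overlap. With size factors 5 of the 11 lay below and 2 above, beside 1737 and 1812 of the 11222 tested genes. Quantile normalization gave 3 and 2, beside 1864 and 1946. The lowest of the 11 was TARS, the threonyl-tRNA synthetase, at 159 and 149 FPKM with si-NC and 116 and 130 FPKM with si-152, a difference of -0.32 (95% interval -0.72 to 0.09). GARS, YARS and WARS, for glycine, tyrosine and tryptophan, differed by -0.24, -0.24 and -0.23. The highest was HARS, the histidyl-tRNA synthetase, at 21.7 and 24.9 FPKM with si-NC and 25.5 and 27.2 FPKM with si-152, a difference of 0.17 (95% interval -0.20 to 0.55). FARSA and FARSB encode the subunits of 1 enzyme, the phenylalanyl-tRNA synthetase. FARSA measured 66.2 and 68.7 FPKM with si-NC and 53.4 and 70.5 FPKM with si-152, a difference of -0.14. FARSB measured 45.1 and 37.4 FPKM with si-NC and 45.7 and 46.7 FPKM with si-152, a difference of 0.16. The intervals of both subunits included 0.

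**Figure D2:**
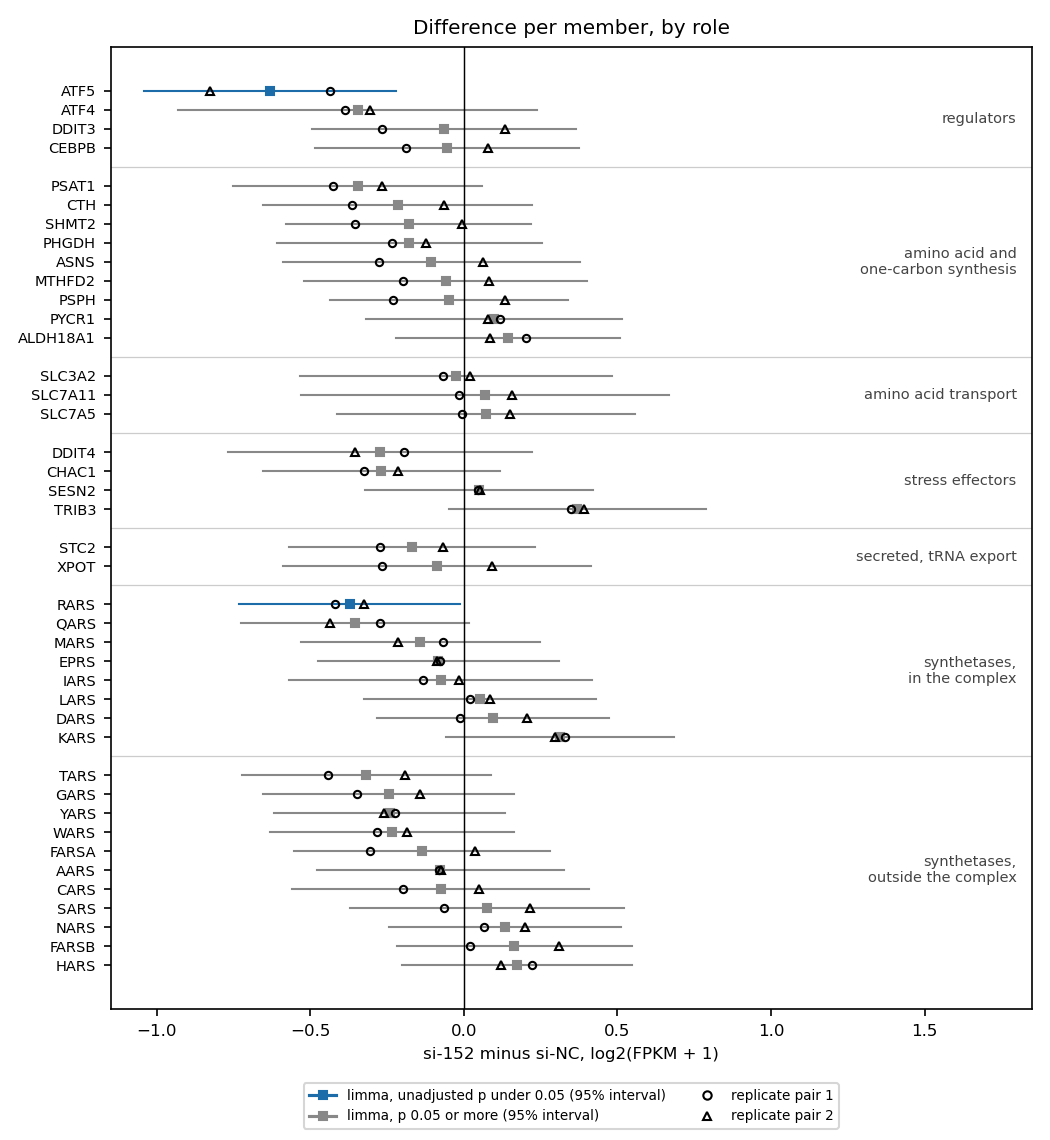
Difference between si-152 and si-NC per tested member on the log2(FPKM + 1) scale, grouped by role, with squares for the limma estimate, lines for its 95% interval, and open circles and triangles for the differences between libraries numbered 1 and 2. The intervals of ATF5 (-1.04 to -0.22) and RARS (-0.73 to -0.013) lie below 0, those of the other 39 members include 0, and TRIB3 and KARS are the highest.

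The synthetases fall into structural classes I and II, which have unrelated catalytic folds. Of 9 tested genes of class I (CARS, EPRS, IARS, LARS, MARS, QARS, RARS, WARS and YARS), 8 had a difference below 0, with LARS the exception and the median was -0.14. Of all tested genes 45.8% were below 0, and of those with a mean of at least 20 FPKM 56.9% were. The si-152 libraries lay below both si-NC libraries for 5 of the 9 and above for 0, beside 13.9% and 16.5% of all tested genes. With quantile normalization they did for 3 and 0, beside 1864 and 1946 of the 11222 tested genes. EPRS is counted in class I for its glutamyl domain, since its prolyl domain is of class II. Of 10 genes of class II, 4 had a difference below 0 and 6 above, and the median was 0.09. Without overlap 3 lay below and 4 above, beside the 13.9% and 16.5% of all tested genes. The class I median was -0.20 in pair 1 and -0.18 in pair 2, and that of class II was -0.04 and 0.16. Summed FPKM of class I was 602 and 551 in si-NC and 532 and 490 in si-152, and that of class II was 991 and 962 in si-NC and 905 and 995 in si-152. The class I sums of si-152 were below both si-NC sums, and the class II sums overlapped. As shares of the summed FPKM of each library, class I was 0.130% and 0.103% with si-NC and 0.125% and 0.0966% with si-152, which overlap. The split of 8 below 0 to 1 above in class I was the same with size factor scaling and with quantile normalization, and class II had 6 and 7 of 10 above 0 under these. The class I median itself moved to -0.088 with quantile normalization and to -0.26 without si-152 replicate 1. The class II median was 0.0052 without si-NC replicate 2 and 0.020 without si-152 replicate 2. This is a description of 19 genes with no test, and the difference between the classes was not tested.

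Over all 41 tested members, 2 were lower and 0 higher at an unadjusted p under 0.05. Of all 11222 tested genes 2.5% were lower and 1.89% higher by that rule, so these counts are near what tested genes give in general. With a fold change above 1.5 also required, 1 member (ATF5) was lower and 0 were higher, beside 1.06% and 0.597% of all tested genes. No member passed an adjusted p of 0.05 in limma, and 0.0178% of all tested genes did. The 95% intervals reached from 0.36 to 0.60 to each side of the estimate, with a median of 0.41, so differences smaller than about this size could not be separated from 0 for a single member with 2 libraries a group.

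Both si-152 libraries were below both si-NC libraries in 14 members and above both in 7, and 20 overlapped. Over all tested genes these shares were 13.9% below and 16.5% above. With size factor scaling the counts were 15 below and 6 above, beside 1737 and 1812 of the 11222 tested genes. With quantile normalization they were 11 below and 5 above, beside 1864 and 1946 of all tested genes. In the pairs of equal number, 19 members were lower in si-152 in both pairs, 9 were higher in both and 13 had opposite signs, beside 27.3% lower in both and 35.6% higher in both among all tested genes. The median difference of the members was -0.08, with -0.20 in pair 1 and 0.04 in pair 2. For all tested genes it was 0.02, with -0.03 and 0.07. The opposite signs of the pairs depended on the scaling, since the pair 2 median of the members was -0.041 with size factors and -0.0042 with quantile normalization, and 7 and 10 members then had opposite signs. Among all 11222 tested genes 4155 had opposite signs as deposited, 3796 with size factors and 3967 with quantile normalization. By sign alone 28 members were below 0 and 13 above, and under quantile normalization 22 and 19. Of all 11222 tested genes 5137 were below 0 (45.8%) and 6085 above, and under quantile normalization 5315 and 5906. At an unadjusted p under 0.05 the members split into 2 lower and 2 higher under quantile normalization, the latter being TRIB3 and KARS. By the same rule and scaling 380 of all 11222 tested genes were lower and 267 higher.

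**Figure D3:**
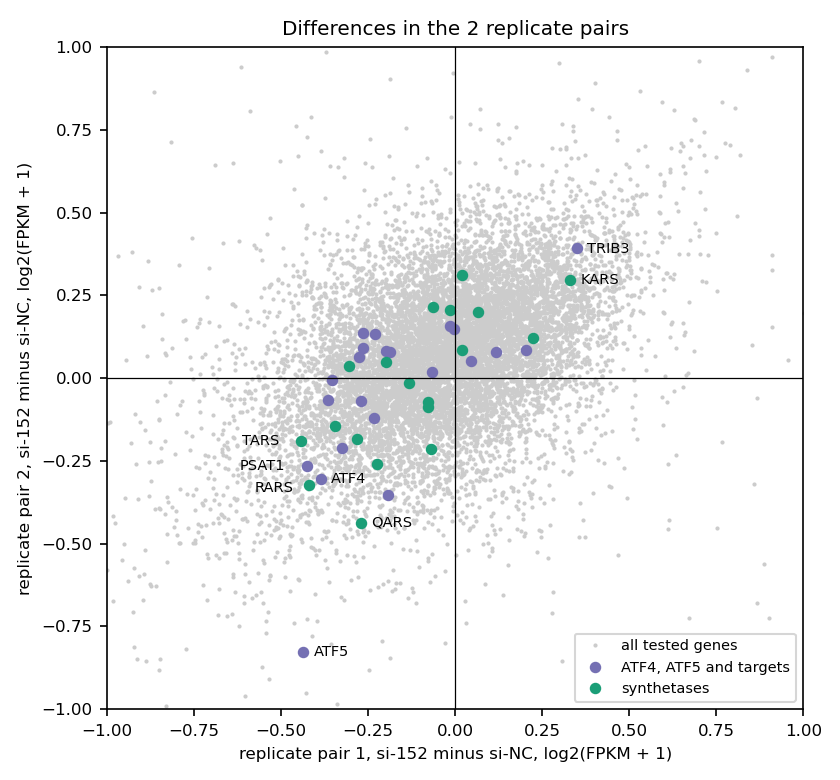
Difference between si-152 and si-NC in the libraries numbered 2 (vertical axis) against that in the libraries numbered 1 (horizontal axis), log2(FPKM + 1) scale, for all tested genes in grey, ATF4, ATF5 and targets in purple and synthetases in green; 125 grey genes lie outside the axes. ATF5 is the lowest member in the libraries numbered 2 (-0.83), TRIB3 is the highest in both pairs (0.35 and 0.39), and 19 members lie below 0 in both pairs.

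The members are highly expressed genes, and such genes had more differences below 0 as a whole. Among the 1388 tested genes with a mean of at least 50 FPKM, a limit chosen after the values were seen, the median difference was -0.09 and 65.9% were below 0. Both si-152 libraries were below both si-NC libraries in 16.1% of them and above in 10.4%. The 27 members above that limit had a median of -0.11, with 21 below 0, 10 below without overlap and 4 above. At 100 FPKM and more the median was -0.11 for all 653 genes and -0.09 for the 18 members. The member medians were thus set beside a background that itself differed with level, and the part of level in the members' differences was not tested.

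The difference by replicate number, averaged over the groups, was larger in size than the difference by siRNA in 20 of 41 members and in 7082 of the 11222 tested genes. Both libraries numbered 2 were below both numbered 1 in 10 members and above in 7, beside 33.6% and 21.4% of all tested genes. These counts moved with the scaling. Size factors gave 8 members below and 12 above, beside 3011 and 3225 of the 11222 tested genes. Under quantile normalization 20 members lay below and 1 above, beside 3134 and 2597 of all tested genes. SLC7A11 differed most by number. The difference of replicate 2 from replicate 1 was -0.61 in si-NC and -0.25 in si-152 for XPOT, and -0.51 and -0.39 for IARS. For CARS it was 0.29 and 0.54. What the numbers stand for beyond replicate 1 and 2 is not given in the labels.

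**Figure D4:**
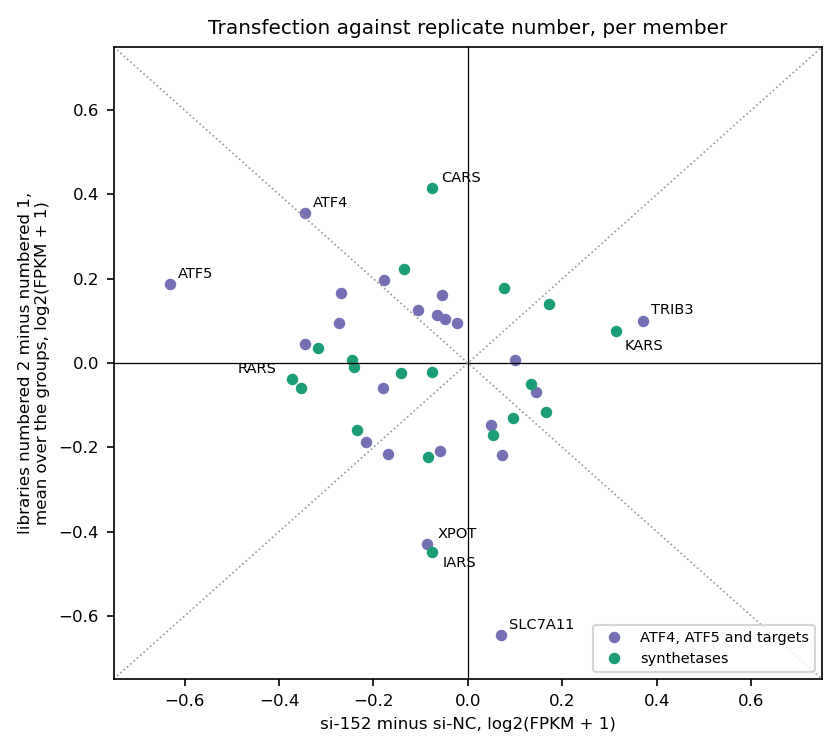
Difference by replicate number (libraries numbered 2 minus numbered 1, mean over both groups) against the difference by siRNA (si-152 minus si-NC) for the 41 tested members, both on the log2(FPKM + 1) scale, with dotted lines where both are equal in size. In 20 members, SLC7A11, XPOT, IARS, CARS and ATF4 among them, the difference by number is the larger one, as in 7082 of all 11222 tested genes.

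Members with and without the promoter core had similar differences, which were not tested against each other. The 10 genes with the core lay between -0.32 for TARS and 0.13 for NARS, with a median of -0.09. Of these 10, 9 were below 0, beside 45.8% of all tested genes and 65.9% of those with a mean of at least 50 FPKM. Only CARS among the 10 had a mean under that level, at 17.5 FPKM. Under quantile normalization ASNS, SLC3A2 and AARS also lay above 0, at 0.019, 0.090 and 0.015. The 24 tested members with a window and no core had the same median of -0.09, with 16 below 0 and 8 above. ATF5, RARS, TRIB3 and KARS were among these, so that the members at both ends of the range had no core of these letters in the windows searched.

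The genes that stand before ATF4 were described from a list of 16 genes, which holds the eIF2 kinases, subunits of eIF2, eIF2B and the eIF2 phosphatases, and the GCN2 regulators GCN1 and IMPACT. All 16 were tested, and the median difference was -0.05. At an unadjusted p under 0.05 in limma 0 passed in either direction, beside 2.5% lower and 1.89% higher among all tested genes. At these shares a list of this size can hold 0 without differing from tested genes in general. Both si-152 libraries lay below both si-NC libraries for EIF2AK1, EIF2S3 and EIF2B3, with differences of -0.26, -0.29 and -0.22, and above them for EIF2B2, with a difference of 0.20. Of all tested genes 13.9% lay below in this way and 16.5% above. With size factors 6 of the 16 lay below and 0 above, beside 1737 and 1812 of the 11222 tested genes. Quantile normalization gave 4 and 1, beside 1864 and 1946. The amino acid sensor EIF2AK4 (GCN2) differed by 0.07, its partner GCN1 by 0.21 and IMPACT, which restrains it, by 0.07. The kinase of the endoplasmic reticulum, EIF2AK3 (PERK), measured 6.80 and 4.80 FPKM with si-NC and 4.90 and 3.66 FPKM with si-152, a difference of -0.36 (95% interval -0.86 to 0.14). PPP1R15A (GADD34), the stress-induced phosphatase subunit, differed by 0.07. PPP1R15B, the other phosphatase gene of the list, differed by -0.28 with overlapping groups. Of 17 synthetase genes of mitochondria none passed, beside the same 2.5% and 1.89% of all tested genes, and the median was -0.01. Without overlap 0 of the 17 lay below and 4 above, beside 13.9% and 16.5% of all tested genes. With size factors 4 lay below and 3 above, beside 1737 and 1812 of the 11222 tested genes. The mitochondrial genes were expressed at a lower level, with a median per library between 6.20 and 8.40 FPKM. The median of the cytosolic synthetases was between 63.1 and 67.9 FPKM.

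Of 22 other known ATF4 targets 18 were tested, 1 was lower and 0 were higher at an unadjusted p under 0.05, beside 2.5% and 1.89% of all tested genes. The gene that was lower was NUPR1, a small stress-induced chromatin protein, at 25.1 and 29.8 FPKM with si-NC and 12.0 and 19.6 FPKM with si-152. Both si-152 libraries lay below both si-NC libraries, and the difference was -0.79 (SE 0.23, 95% interval -1.30 to -0.28), with an unadjusted p of 0.0066 and an adjusted p of 0.76 in limma. Without si-152 replicate 1 the difference was -0.46 with an unadjusted p of 0.064, and without si-152 replicate 2 it was -1.12 with an adjusted p of 0.0033. The median of the 18 was -0.01, with 9 below 0 and 9 above. As these are whole cultures, fewer cells with a transcript and less of it per cell cannot be told apart for any gene named here.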

How the data were processed

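For every library a table of gene symbols and values was deposited. The FPKM values were made by the authors from their aligned reads before they were deposited, with length and depth divided out. The unit is not named in the tables and was inferred, since the values carry decimals and exact zeros and differ in their sums. The submitters' processing notes name Trimmomatic, TopHat, HISAT2, HTSeq, DESeq and build GRCh38. Their versions and settings are not given in the sources used here. Whole reads could not be recovered from the low values, so depth is unknown. The replicates are biological according to the study's methods, and p-values measure only the spread between these 4 libraries.

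A pseudocount of 1 was added, and log2 values of the 11222 genes with 1 FPKM or more in 2 libraries or more were fitted with limma 3.58.1 in R 4.3.3 (moderated test with a trend, no scaling, no block, Benjamini-Hochberg adjustment over all genes). FPKM are not counts, so no count test was run. The fit was tested on simulated data with independent noise in every library and planted differences larger than that of any member. Same-numbered libraries shared no deviation in the simulation, so it does not show how the fit behaves where they do.

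The members and lists were chosen with earlier results of these data known. Values in every library are given for members with an unadjusted p under 0.05, for the 5 highest and 5 lowest differences, for members differing by more than 1.5-fold in both pairs (0 did) and for ATF4, ATF5, DDIT3, CEBPB, ASNS, CHAC1, TRIB3, SLC7A11, PSAT1 and PHGDH, and for the lowest or highest of a role group (TARS among them). Values of FARSA and FARSB per library were added after they were seen. Of the other lists, genes with an unadjusted p under 0.05 are named, and the eIF2-related genes and scaffold genes named were added after their values were seen. The alternatives were a pseudocount of 0.1, other filters, a replicate block, size factors, quantile normalization and leaving out each library. Promoter windows (RefSeq, GRCh38.p14) were searched with Python 3.11.15, and positions and pseudogene names are from GENCODE v29. Members were matched by symbol, with older synthetase symbols matched to the newer form that ends in 1. LINC00152 was not analysed here.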

Additional observations from a re-analysis of the deposited data

How the results depend on the processing

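ATF5 had a difference below 0 in all 10 alternatives and an unadjusted p under 0.05 in 9, and RARS in 10 and 6. The adjusted p ranged from 0.062 to 1.00 for ATF5 and from 0.15 to 1.00 for RARS, and no member had an adjusted p under 0.05 in any alternative. Members lower and higher at an unadjusted p under 0.05 (2 and 0 as reported) were 4 and 2 with no filter (PSAT1, QARS, TRIB3 and KARS added), 7 and 2 with the replicate block, 3 and 0 with size factors (QARS added), and 2 and 2 with quantile normalization. Leaving out 1 library gave 0 to 1 lower by p alone and 0 to 1 with the fold. Of all tested genes, 434 were lower and 362 higher with no filter. With adjustment 1 gene passed, in place of 2, with the pseudocount of 0.1, with no filter, with size factors or with quantile normalization, and 0 with 1 FPKM in every library. Leaving out 1 library gave 129 to 518 lower and 157 to 423 higher by p alone, 106 to 377 and 112 to 231 with the fold, and 45 to 78 with adjustment.

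The numbers 1 and 2 are not said to mark a shared day or batch, and with 2 pairs only they were not taken to pair the libraries, although deviations from the group means correlated at 0.52 over the 11222 genes. With the replicate number as a block, 912 genes were lower and 981 higher by p alone and 78 passed adjustment. The block brought ATF4, PSAT1, CHAC1, TRIB3, KARS, QARS and TARS under an unadjusted p of 0.05, and NUPR1 to an adjusted p of 0.037.

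The class I median was -0.16 with size factors, -0.088 with quantile normalization and -0.26 to -0.17 without 1 library, and that of class II was 0.0052 to 0.11 without 1 library. Quantile normalization turned CEBPB to 0.026, DDIT3 to 0.016, ASNS to 0.019, MTHFD2 to 0.052, SLC3A2 to 0.090 and AARS to 0.015. Leaving out 1 library gave both signs for ASNS (-0.25 to 0.041), CARS (-0.34 to 0.19), CEBPB (-0.20 to 0.093), DARS (-0.024 to 0.21), DDIT3 (-0.22 to 0.092), EPRS (-0.20 to 0.031), FARSA (-0.33 to 0.062), IARS (-0.33 to 0.18), LARS (-0.050 to 0.15), MTHFD2 (-0.23 to 0.12), PSPH (-0.19 to 0.094), SARS (-0.083 to 0.23), SESN2 (-0.026 to 0.12), SLC3A2 (-0.094 to 0.046), SLC7A11 (-0.30 to 0.44), SLC7A5 (-0.075 to 0.22) and XPOT (-0.39 to 0.22). None of these 17 had passed the test. A fit that leaves 1 library in a group assumes that it varies like the other group. The cause of these changes was not tested.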
